A study of Homo sapiens with 9 samples.

Results

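The mitotic genes described here are 41 protein-coding genes whose products carry cells into and through mitosis, taken by symbol from a table of 19984 genes. All 41 were found and tested, and the lowest read count of any of them in any library was 2129. RNA-seq of polyA RNA was measured in LNCaP, an androgen-responsive prostate cancer cell line, and every library expressed 6 markers used to check that identity (*KLK3*, *KLK2*, *TMPRSS2*, *FOLH1*, *KRT8* and *KRT18*). The groups are clones made with CRISPR-Cas9, del-4, del-56 and WT, each grown for 48 h in RPMI medium with serum. Both del clones lack the promoter and the first 2 exons of the long noncoding RNA gene *EPCART*, which the WT control retains. Each clone gave 3 libraries that the study calls biological replicates, so the tests measure the spread within a clone. An effect of the deletion and a property of a clone cannot be told apart, and both comparisons use the same WT libraries.

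Mitotic genes are transcribed in a wave that peaks as cells approach division. In quiescent cells the DREAM complex holds them off, and in cycling cells its MuvB core joins B-MYB and FOXM1 to switch them on through a promoter element called the cell cycle genes homology region (CHR). Nearby CCAAT boxes bind NF-Y. The products include the kinase CDK1 with its cyclins, the kinases that build the spindle, the checkpoint that holds back the anaphase-promoting complex (APC/C) until chromosomes are attached, and the motors that divide the cell. The question here is which of these genes differed in level where *EPCART* had been deleted.

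Most promoters of these genes carried the letters of both elements. RefSeq windows (GRCh38.p14, from 250 bases before to 50 bases after each start) were found for 36 of the 41 genes, in 46 windows, and not for *BUB3*, *AURKA*, *FOXM1*, *TTK* and *TPX2*. The CHR was searched on both strands as TTTGAA or TTTAAA, or else as TTCGAA. Such letters were in 38 of the 46 windows (82.6%), against 25.1% of all 35116 windows. CCAAT on either strand was in 36 windows (78.3%), against 34.6% of all. Both were in 67.4% of the mitotic windows and 9.70% of all windows. The 28 windows of genes of the G1/S transition and DNA replication, another cell cycle group, held the CHR letters in 25% and CCAAT in 75%. Matches are a description of letters, and no test was made of them. The 120 bases before the start are printed for 9 genes that show the range of the expression values below, picked after those values were seen. *CCNB1*, *CCNB2*, *KIF20A*, *CDC20* and *CDCA8* were higher in both deletion clones, *PLK1* and *HMMR* were lower in both, and *MKI67* and *KIF4A* were not called. The coordinates are chr5:69167030-69167149, chr15:59105026-59105145, chr5:138178992-138179111, chr1:43358861-43358980, chr1:37692396-37692515, chr16:23678769-23678888, chr5:163460512-163460631, chr10:128126424-128126543 (minus strand) and chrX:70289984-70290103 for the genes in the order shown, with the plus strand for all but *MKI67*. Capitals mark the CHR letters and CCAAT or its reverse complement ATTGG, and the CHR and ATTGG share a base in *CDCA8* and *MKI67*, as CCAAT and ATTGG share letters in *HMMR*. Other annotated transcripts of *CCNB1*, *CCNB2*, *KIF20A*, *CDCA8*, *PLK1* and *HMMR* begin before or within these bases.
CCNB1: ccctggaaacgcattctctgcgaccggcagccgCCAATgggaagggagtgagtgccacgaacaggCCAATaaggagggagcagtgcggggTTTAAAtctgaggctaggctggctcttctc
CCNB2: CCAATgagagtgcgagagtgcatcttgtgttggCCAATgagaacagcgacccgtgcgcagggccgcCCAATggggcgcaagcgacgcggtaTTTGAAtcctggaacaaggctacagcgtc
KIF20A: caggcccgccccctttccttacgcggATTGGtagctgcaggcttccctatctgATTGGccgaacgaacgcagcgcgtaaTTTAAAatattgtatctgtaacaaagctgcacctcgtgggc
CDC20: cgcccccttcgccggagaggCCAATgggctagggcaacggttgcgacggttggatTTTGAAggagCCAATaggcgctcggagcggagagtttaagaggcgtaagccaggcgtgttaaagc
CDCA8: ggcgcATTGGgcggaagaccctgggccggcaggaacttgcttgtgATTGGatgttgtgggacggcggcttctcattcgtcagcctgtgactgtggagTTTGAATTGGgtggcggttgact
PLK1: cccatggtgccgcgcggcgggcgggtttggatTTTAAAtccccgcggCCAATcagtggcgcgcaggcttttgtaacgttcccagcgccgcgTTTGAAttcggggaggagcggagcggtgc
HMMR: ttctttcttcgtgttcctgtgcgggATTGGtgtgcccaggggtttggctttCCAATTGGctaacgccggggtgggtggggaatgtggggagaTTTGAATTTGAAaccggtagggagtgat
MKI67: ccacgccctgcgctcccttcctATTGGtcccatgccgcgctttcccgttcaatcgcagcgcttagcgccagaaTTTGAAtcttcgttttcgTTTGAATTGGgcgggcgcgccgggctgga
KIF4A: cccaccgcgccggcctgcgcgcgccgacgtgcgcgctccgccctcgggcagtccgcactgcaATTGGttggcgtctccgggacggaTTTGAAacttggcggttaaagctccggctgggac

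All 9 printed stretches held both elements, whether the gene was higher, lower or not called. Among genes called higher in del-4, all 10 with a window held the CHR letters, as did all 5 called lower and 18 of 21 not called. For del-56 it was 13 of 14 genes called higher, 4 of 5 called lower and 16 of 17 not called. In *CCNB1* the CHR letters began 30 bases before the start and CCAAT boxes began 55 and 87 bases before it. *PLK1*, which moved the other way, had CHR letters 29 and 88 bases before the start and 1 CCAAT box at 73 bases.

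The genes were read deeply. Between 91074556 and 118877134 reads fell on genes in a library, and the values used are normalized counts, that is reads divided by 1 size factor per library. Levels were compared between genes after division by exon length in kilobases. On that scale, *CCNB1* was the most abundant mitotic gene in WT with 9552 ± 253 per kb (SD, n = 3), followed by *CDC20* with 9037 ± 429, and their libraries overlapped. *CDK1* came next with 7262 ± 116, apart from both its neighbours in the order. *KIF23* (501 ± 12.6), *CENPE* (569 ± 28.8) and *KIF14* (593 ± 17.0) were the least abundant, and *CENPE* and *KIF14* overlapped. The median coefficient of variation between libraries of a clone was 3.88% (del-4), 3.37% (del-56) and 2.78% (WT).

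Against WT, the mitotic genes split instead of moving as a block. In del-4, 12 of the 41 rose and 5 fell at an adjusted p under 0.05 (limma on log2 values with a pseudocount of 1, Benjamini-Hochberg adjustment over 17401 genes). Over all genes tested, 20.5% were called higher and 20.2% lower. In del-56, 16 rose and 5 fell, where 19.2% of 17481 genes were called higher and 20.5% lower. The mitotic genes thus had 29.3% called higher and 12.2% lower in del-4, against 39.0% and 12.2% for del-56. Deeply read genes are called more often: among the 10380 genes with a WT mean of at least 1000, 26.7% were higher and 25.1% lower in del-4, with 24.4% and 26.7% for del-56. The median log2 fold change of the 41 genes was 0.01 (del-4) and 0.08 (del-56), beside medians of -0.003 and -0.001 over all genes. Libraries of the clone and of WT did not overlap for 16 genes that were higher and 6 that were lower in del-4 (24.8% of all genes each way), and for 20 and 6 in del-56 (24% and 24.8%). No mitotic gene changed by as much as 1 on the log2 scale, and the largest change was 0.49 (*TTK* in del-56). Without WT replicate 3 the genes lower in del-56 numbered 2 in place of 5.

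**Figure D1:**
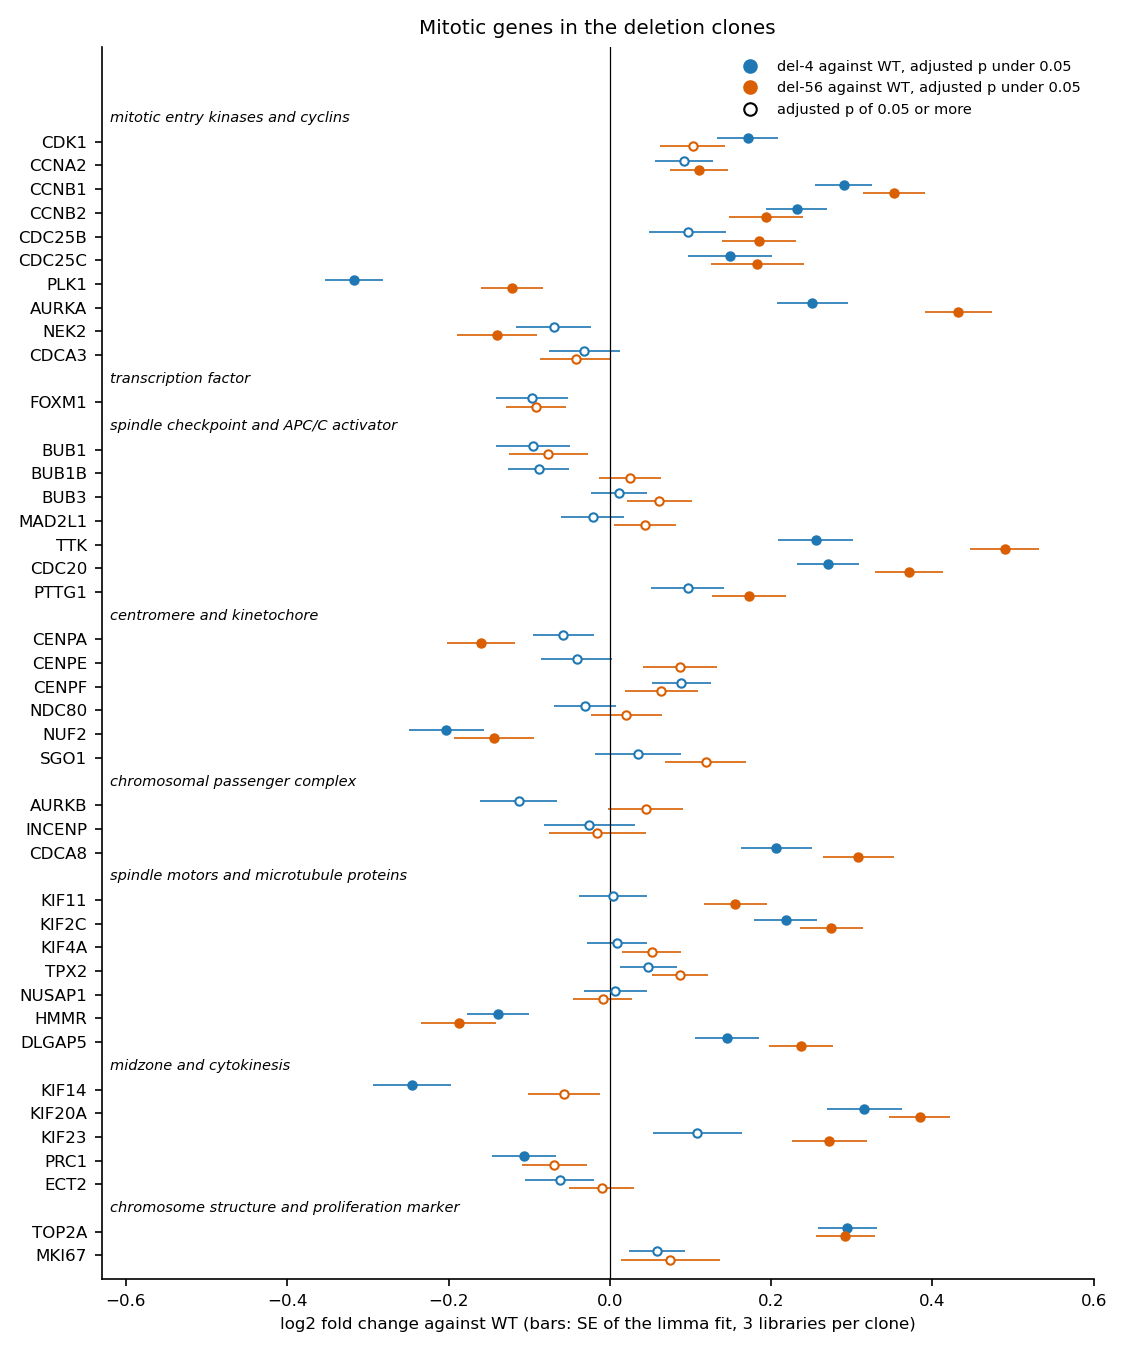
Log2 fold change against WT (horizontal axis) of the 41 mitotic genes (vertical axis, by role) in del-4 (blue) and del-56 (orange), with bars for the SE of the fit and filled points for an adjusted p under 0.05. *TTK*, *AURKA*, *KIF20A*, *CDC20* and *CCNB1* lie farthest to the right, and *PLK1* and *KIF14* in del-4 farthest to the left, at -0.32 and -0.25.

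The scaling of the libraries decided how evenly the calls were split in del-4. When libraries were rescaled to the same total, the median of all genes moved to -0.07 in del-4 and to -0.03 in del-56. The mitotic genes then had 10 higher and 12 lower calls for del-4, where 13.6% of all genes were higher and 28.3% lower. For del-56 they had 14 and 6, where 15.7% of all genes were higher and 22.9% lower. With quantile normalization they had 12 and 7 for del-4 and 19 and 3 for del-56. RNA was taken from whole cultures, so a larger share of cells in mitosis and more of these RNAs per cell cannot be told apart.

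Genes of mitotic entry held more rises than falls. Of 10 such genes, 5 rose and 1 fell in del-4, and 6 rose and 2 fell in del-56, beside the shares of all genes given above. After rescaling to the same total, 4 rose and 2 fell in each clone. *CCNB1* encodes cyclin B1, the partner that activates CDK1. Its normalized counts were 23814, 23316 and 22592 in WT, 27766, 28732 and 28727 in clone del-4, and 28621, 30457 and 29936 in clone del-56. All libraries of both deletion clones lay above all of WT, and the log2 fold changes were 0.29 (SE 0.035, adjusted p = 2.65e-06) and 0.35 (SE 0.038, adjusted p = 2.25e-06). *CCNB2*, encoding cyclin B2, measured 7593, 7566 and 7863 in WT, 8719, 9011 and 9305 in clone del-4, and 8195, 8923 and 9241 in clone del-56. These groups did not overlap WT either, and it rose by 0.23 (SE 0.038, adjusted p = 8.42e-05) and 0.19 (SE 0.045, adjusted p = 0.00283). The kinase gene *CDK1* itself measured 28723, 27870.4 and 28572 in WT, 30818, 33693 and 31441 in clone del-4, and 28834, 31406 and 31279 in clone del-56. It rose by 0.17 in del-4 (SE 0.038, adjusted p = 0.00139), while in del-56, whose lowest library lay just above the highest of WT, the difference of 0.10 had an adjusted p of 0.0532 (95% interval of the difference 0.02 to 0.19). That difference was called by edgeR and DESeq2 (adjusted p = 0.0471 and 0.0305). *CCNA2*, encoding cyclin A2, rose by 0.11 in del-56 (adjusted p = 0.0233) and differed by 0.09 in del-4 (adjusted p = 0.0523). The phosphatases that remove the brake from CDK1 had values close to these. *CDC25C* rose by 0.15 in del-4 and 0.18 in del-56 (adjusted p = 0.0285 and 0.0184). Single libraries left out ended both *CDC25C* calls, with adjusted p up to 0.122 and 0.105, and that of *CCNA2*, with adjusted p up to 0.119. *CDC25B* rose by 0.18 in del-56 (adjusted p = 0.00446) with a difference of 0.10 in del-4 (adjusted p = 0.122).

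Among kinases that prepare the centrosomes and the spindle, *AURKA* rose and *PLK1* fell. *AURKA* encodes Aurora A, which matures centrosomes. It measured 7019.8, 6765 and 6649 in WT, 7792, 8657 and 7893 in clone del-4, and 8812, 9472 and 9297 in clone del-56, with no overlap between any of the 3 clones. The rise was 0.25 in del-4 (SE 0.044, adjusted p = 0.000147) and 0.43 in del-56 (SE 0.041, adjusted p = 5.87e-07). *PLK1*, the polo-like kinase that acts from entry to cytokinesis, measured 12217, 12559 and 12682 in WT, 9765, 10288 and 10019 in clone del-4, and 11929.5, 11399.7 and 11128 in clone del-56. All del-56 libraries lay below WT and all del-4 libraries below both. The gene fell by 0.32 in del-4 (SE 0.036, adjusted p = 1.27e-06) and by 0.12 in del-56 (SE 0.038, adjusted p = 0.0196). The fall in del-56 was lost without del-56 replicate 2 or 3 or WT replicate 2 or 3, with adjusted p up to 0.107. *NEK2*, whose kinase parts the centrosomes, fell by 0.14 in del-56 (adjusted p = 0.0346), a call lost without del-56 replicate 1 or 3 or WT replicate 1 or 3 (adjusted p up to 0.125), and differed by -0.07 in del-4 (adjusted p = 0.252). *CDCA3*, which promotes mitotic entry, differed by -0.03 and -0.04 and passed no test.

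*FOXM1*, the transcription factor that drives many genes of this list, was not among those called. Its counts were 22159, 22607 and 23655 in WT, 19884, 22828 and 21362 in clone del-4, and 21722, 21198 and 21262 in clone del-56. Del-56 lay below WT and del-4 overlapped it. The differences were -0.10 (95% interval -0.19 to -0.003, adjusted p = 0.095) and -0.09 (95% interval -0.17 to -0.01, adjusted p = 0.0599). Alternatives called it lower: in both clones after rescaling to the same total (adjusted p = 0.0109 and 0.0212), in del-4 with quantile normalization (0.044) and without del-4 replicate 2 (0.0135), and in del-56 by DESeq2 (0.049) and without del-56 replicate 1 or WT replicate 1 (0.0375 and 0.0325).

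**Figure D2:**
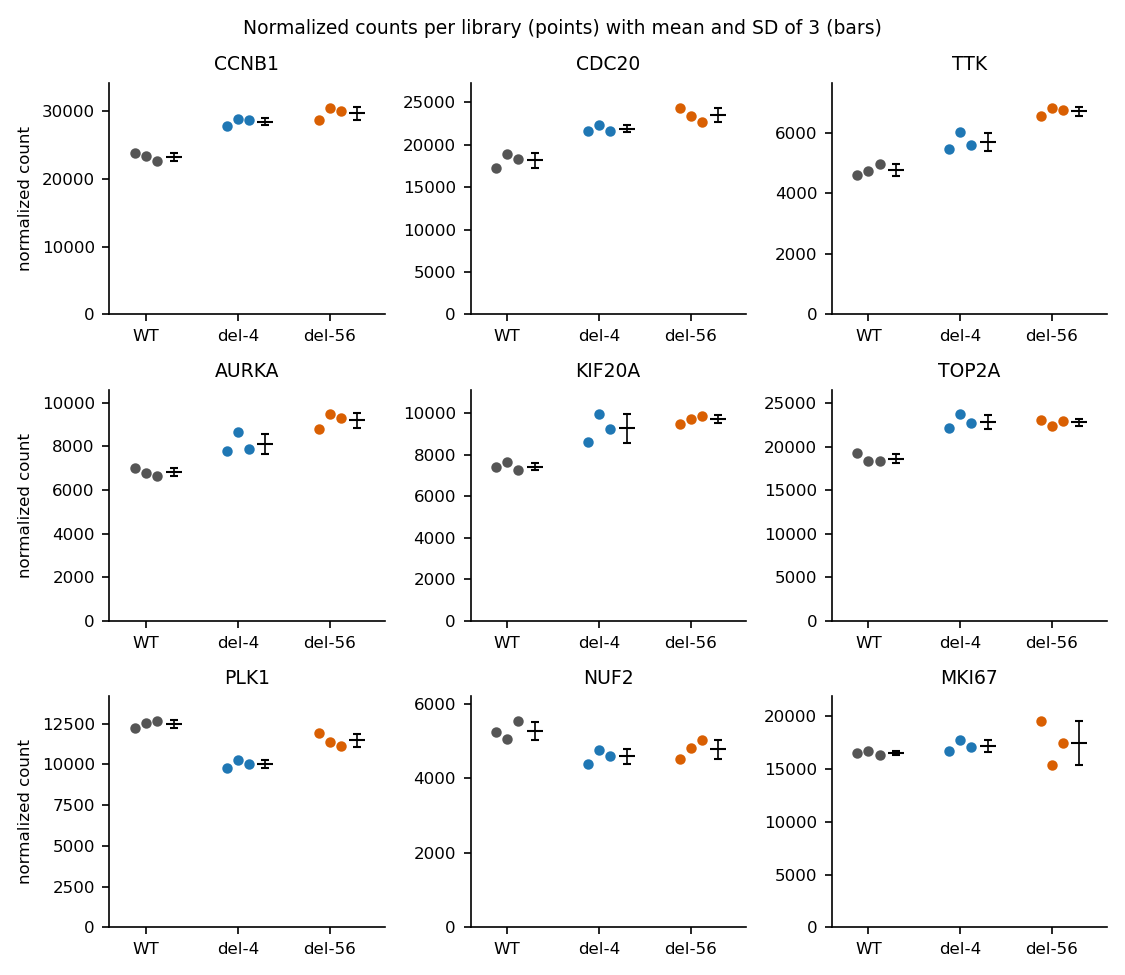
Normalized counts (vertical axes, from 0) of 9 mitotic genes in each of the 3 libraries of WT, del-4 and del-56 (points), with the mean and SD beside them. In the first 6 panels (*CCNB1* to *TOP2A*) both deletion clones lie above all WT libraries, in *PLK1* and *NUF2* they lie below, and the del-56 libraries of *MKI67* spread from 15381 to 19585.

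Of 7 genes of the spindle checkpoint and its target, 2 rose in del-4 (28.6%) and 3 rose in del-56 (42.9%). Among all genes with a WT mean of at least 1000, 26.7% and 24.4% rose. The checkpoint kinase *TTK* and *CDC20*, the target of the checkpoint, rose in both clones. None of the 7 was called lower by limma, edgeR or DESeq2, and after rescaling 2 were lower in del-4. *TTK* encodes MPS1, the kinase that starts the checkpoint at unattached kinetochores. It measured 4611, 4743 and 4985 in WT, 5476, 6041 and 5602 in clone del-4, and 6556, 6827 and 6744 in clone del-56, so the 3 clones were in 3 separate ranges. It rose by 0.26 in del-4 (SE 0.046, adjusted p = 0.000219) and by 0.49 in del-56 (SE 0.043, adjusted p = 2.29e-07), which is 40.4% above WT. *CDC20*, the activator of the APC/C that the checkpoint holds back, measured 17258, 18969 and 18320.4 in WT, 21692, 22361 and 21694 in clone del-4, and 24374, 23374 and 22752 in clone del-56. It rose by 0.27 (SE 0.038, adjusted p = 1.63e-05) and 0.37 (SE 0.042, adjusted p = 3.5e-06). The genes of the checkpoint proteins that bind CDC20 or the kinetochore were not called in the main comparison. *BUB1* measured 6380.0, 7023 and 6569 in WT, 5938, 6214 and 6546 in clone del-4, and 5915, 6549 and 6486 in clone del-56, and these ranges overlapped. Its differences were -0.10 (95% interval -0.19 to 0.001) and -0.08 (95% interval -0.18 to 0.03). *BUB1* was called lower in del-4 after rescaling (adjusted p = 0.0113). *BUB1B* was called lower there after rescaling (0.00522), with quantile normalization (0.0196) and without del-4 replicate 2 or WT replicate 1 (0.032 and 0.034). *BUB1B* differed by -0.09 and 0.03, *BUB3* by 0.01 and 0.06, and *MAD2L1* by -0.02 and 0.04. *PTTG1*, encoding securin, which the APC/C destroys to free separase, rose by 0.17 in del-56 (adjusted p = 0.00702) and differed by 0.10 in del-4 (adjusted p = 0.100). The call in del-56 was lost without WT replicate 2 (adjusted p = 0.0527). Its near copy *PTTG2* had 0 to 4 reads per library.

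Of 6 centromere and kinetochore genes, 1 fell in del-4 (16.7%) and 2 fell in del-56 (33.3%), beside 20.2% and 20.5% of all genes. None was called higher by limma (1 in each clone at an unadjusted p under 0.05), and DESeq2 called 1 higher in del-4. *NUF2*, a subunit of the NDC80 complex that grips microtubules, measured 5235, 5067 and 5547 in WT, 4383, 4776 and 4612 in clone del-4, and 4514, 4811 and 5025 in clone del-56. It fell by 0.20 in del-4 (SE 0.046, adjusted p = 0.00174). In del-56 it fell by 0.14 (SE 0.050, adjusted p = 0.0303), a call lost without del-56 replicate 1 or 2 or WT replicate 1 or 3 (adjusted p up to 0.161). Its partner *NDC80* differed by -0.03 and 0.02 and passed no test. *CENPA*, the histone variant that marks the centromere, fell by 0.16 in del-56 (adjusted p = 0.00626) and differed by -0.06 in del-4. *CENPE* (-0.04 and 0.09), a kinetochore motor, *CENPF* (0.09 and 0.06) and *SGO1* (0.03 and 0.12), the guard of centromeric cohesin, were not called.

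In the chromosomal passenger complex, which corrects faulty attachments, *CDCA8* was the 1 gene of 3 called. It was called higher in both clones, a share of 33.3%, beside 20.5% and 19.2% of all genes. It encodes borealin and measured 6699, 6691 and 7362 in WT, 7689, 8069 and 8174 in clone del-4, and 8369.6, 8671 and 8632 in clone del-56. Both deletion clones lay above WT, by 0.21 (SE 0.044, adjusted p = 0.000903) and 0.31 (SE 0.044, adjusted p = 3.82e-05). *AURKB*, the kinase of the complex, measured 3943, 4155 and 3879 in WT, 3694, 3864 and 3522 in clone del-4, and 4156, 4224 and 3970.0 in clone del-56. Del-4 lay below WT with a difference of -0.11 (95% interval -0.21 to -0.01, adjusted p = 0.0694, and 0.00759 after rescaling to the same total), and del-56 overlapped WT with 0.04 (95% interval -0.05 to 0.14). *INCENP*, the scaffold, differed by -0.03 and -0.02.

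Among spindle motors and microtubule proteins, 2 of 7 rose in del-4 (28.6%) and 3 in del-56 (42.9%), and 1 fell in each (14.3%). Among all genes with a WT mean of at least 1000, 26.7% and 24.4% rose, and 25.1% and 26.7% fell. *KIF2C*, a motor that takes microtubules apart at centromeres, measured 8240.3, 8209 and 7939.9 in WT, 9110.1, 9841 and 9426 in clone del-4, and 9713, 10177 and 9621 in clone del-56. It rose by 0.22 (SE 0.039, adjusted p = 0.00018) and 0.27 (SE 0.039, adjusted p = 3.46e-05). *DLGAP5* encodes HURP, which stabilizes microtubules near chromosomes. Its counts were 9782, 9285 and 9561 in WT, 10240.5, 11084 and 10352 in clone del-4, and 10797, 11647 and 11300.1 in clone del-56, with no overlap with WT. The rises were 0.15 (SE 0.039, adjusted p = 0.00629) and 0.24 (SE 0.040, adjusted p = 0.000192). After rescaling to the same total the value in del-4 was 0.08 (adjusted p = 0.16). *KIF11*, the motor that pushes spindle poles apart, rose by 0.16 in del-56 (adjusted p = 0.00446) and differed by 0.004 in del-4. The gene that fell was *HMMR*, encoding a spindle protein that is also a hyaluronan receptor. Its changes were -0.14 against WT for del-4 and -0.19 for del-56 (adjusted p = 0.00729 and 0.00412). *TPX2* (0.05 and 0.09), which activates Aurora A on the spindle, *NUSAP1* (0.01 and -0.01) and the chromosome motor *KIF4A* (0.01 and 0.05) were not called. *TPX2* was called higher in del-56 with quantile normalization, by DESeq2 and without WT replicate 1 (adjusted p = 0.0334, 0.036 and 0.0335). The near copy *KIF4B* had 0 to 10 reads per library.

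The 5 genes of the midzone and cytokinesis held both directions. In del-4, 1 was called higher (20%) and 2 lower (40%), beside 20.5% and 20.2% of all genes. In del-56, 2 were called higher (40%) and 0 lower (limma, edgeR and DESeq2), beside 19.2% and 20.5%. *KIF20A* encodes MKLP2, which brings the passenger complex to the midzone. Its counts were 7408, 7629.7 and 7269.7 in WT, 8595, 9949.9 and 9260.0 in clone del-4, and 9503, 9726 and 9881 in clone del-56. All deletion libraries lay above WT, by 0.32 (SE 0.047, adjusted p = 2.62e-05) and 0.38 (SE 0.038, adjusted p = 9.11e-07). *KIF23*, the motor of centralspindlin, rose by 0.27 in del-56 (adjusted p = 0.000227) and differed by 0.11 in del-4 (adjusted p = 0.132). *KIF14*, a motor of the midbody, fell by 0.25 in del-4 (adjusted p = 0.000496) and differed by -0.06 in del-56 (adjusted p = 0.349). *PRC1*, which bundles midzone microtubules, fell by 0.11 in del-4 (adjusted p = 0.0388), lost without del-4 replicate 1 or 3 or WT replicate 1 or 3 (adjusted p up to 0.187), and differed by -0.07 in del-56. *ECT2*, which activates RhoA for the contractile ring, differed by -0.06 and -0.01.

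The last pair are the genes most used to count dividing cells, and they differed from each other. *TOP2A*, the topoisomerase that untangles chromosomes, measured 19209.6, 18306 and 18377 in WT, 22153, 23707 and 22708 in clone del-4, and 23079.5, 22356 and 22989.5 in clone del-56. It rose by 0.29 in each clone (SE 0.037 and 0.036, adjusted p = 3.87e-06 and 9.38e-06). *MKI67*, encoding Ki-67, measured 16529.8, 16678 and 16308 in WT, 16703, 17789 and 17087 in clone del-4, and 19585, 15381 and 17449 in clone del-56. Del-4 lay narrowly above WT and del-56 lay on both sides of it. The differences were 0.06 (95% interval -0.02 to 0.13, and -0.01 after rescaling to the same total) and 0.08 (95% interval -0.06 to 0.21), and the coefficient of variation in del-56 was the highest of any mitotic gene in any clone. Without del-56 replicate 2 the difference in del-56 was 0.16 and was called (adjusted p = 0.019).

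Beside each other, the deletion clones differed in a minority of these genes. Compared with del-56, del-4 had 7 mitotic genes called lower and 0 higher in limma, where 9% of 17447 genes were called lower and 10.9% higher. At an unadjusted p under 0.05, 1 gene was higher in del-4. The tools edgeR and DESeq2 also called 0 higher, with 7 and 10 lower. The median difference over the 41 genes was -0.05, and with libraries rescaled to the same total 13 were called lower. The genes called were *TTK* (-0.23, adjusted p = 0.00094), *PLK1* (-0.20, adjusted p = 0.00152), *KIF14* (-0.19, adjusted p = 0.0125), *AURKA* (-0.18, adjusted p = 0.00842), *AURKB* (-0.16, adjusted p = 0.0308), *KIF11* (-0.15, adjusted p = 0.0193) and *CENPE* (-0.13, adjusted p = 0.0425). They fall into kinds by where WT lay. *TTK* and *AURKA* were higher in del-56 and less so in del-4, *PLK1* was lower in del-4 and less so in del-56, *KIF14* was called against WT in del-4 and *KIF11* in del-56, and *AURKB* and *CENPE* were called against WT in neither.

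**Figure D3:**
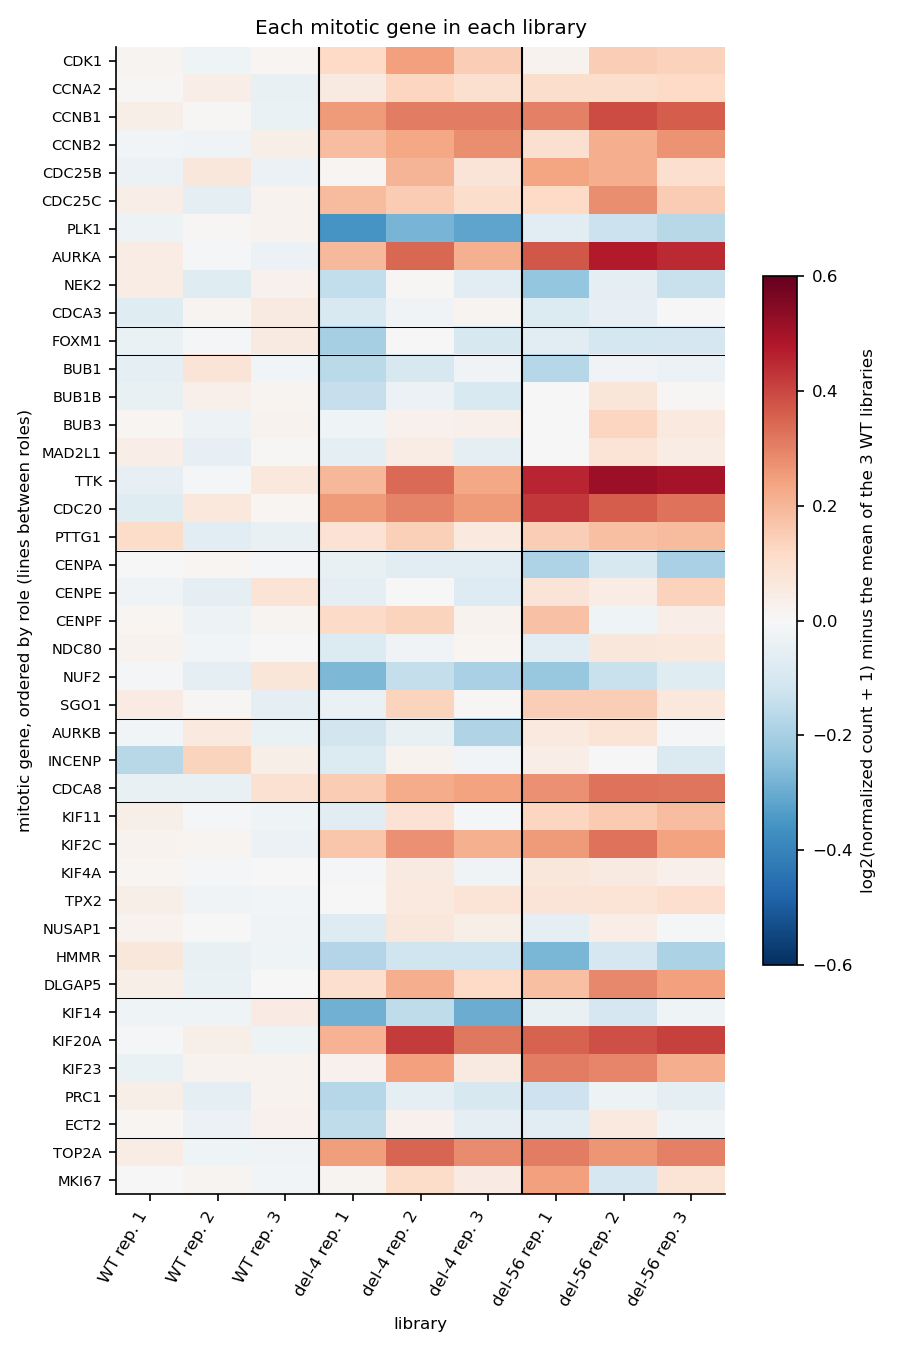
Each mitotic gene (rows, ordered by role) in each of the 9 libraries (columns), as log2 of the normalized count plus 1 minus the mean of the 3 WT libraries, red for higher and blue for lower. The strong rows are the same in the 3 libraries of a clone, and del-4 replicate 1 is paler or bluer than del-4 replicate 2 for most genes.

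Single libraries moved the mitotic genes together. In del-4, replicate 1 was the lowest of its clone for 33 of the 41 genes and replicate 2 the highest for 31, where 31.9% and 33.3% of all genes had those libraries lowest and highest. The mean of the 41 genes against WT was -0.005, 0.09 and 0.04 on the log2 scale in the del-4 libraries, and 0.08, 0.12 and 0.10 in those of del-56. In WT it was within 0.006 of 0 in each library. Without del-4 replicate 1 the median log2 fold change in del-4 was 0.05 and 4 genes were called lower. Without del-4 replicate 2 the median was -0.01 and 8 were lower. Against del-56, leaving out del-4 replicate 1 or del-4 replicate 3 left 2 genes called lower, *TTK* and *PLK1*, and leaving out del-56 replicate 2 or 3 left 3 or 4. What moved these libraries was not tested.

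Genes near the mitotic genes on the chromosome were compared with them. For each gene the median log2 fold change of the 25 tested genes on each side was taken. In both clones the neighbours of *CDC20*, *CDCA8* and *KIF2C*, all on the short arm of chromosome 1, had medians of 0.21 to 0.25, and the genes themselves had values of 0.21 to 0.37. *CDCA8* and *KIF2C* differed from their neighbours by -0.006 and -0.02 in del-4 and by 0.07 and 0.02 in del-56, and *CDC20* by 0.03 and 0.12. The neighbours of *PLK1* on chromosome 16 had medians of -0.27 for del-4 and -0.26 for del-56, where *PLK1* itself was at -0.32 and -0.12. *BUB1* and *CENPA* on chromosome 2 lay among neighbours at -0.16 and -0.18 in del-4 and at -0.26 and -0.22 in del-56. Other genes differed more from their surroundings. *CCNB1* exceeded its neighbours by 0.30 and 0.39, *TTK* by 0.39 and 0.47, *TOP2A* by 0.26 and 0.22, *KIF20A* by 0.24 and 0.30, and *AURKA* by 0.17 and 0.32. *HMMR* was below its neighbours by 0.10 and 0.25. Over the 41 genes, the sign was that of the neighbours' median for 27 with del-4 and for 29 with del-56. The same count was not made for other genes, so it does not set the mitotic genes apart. Medians of some neighbourhoods lay near the values of their mitotic genes, and the part of copy number in this was not tested.

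**Figure D4:**
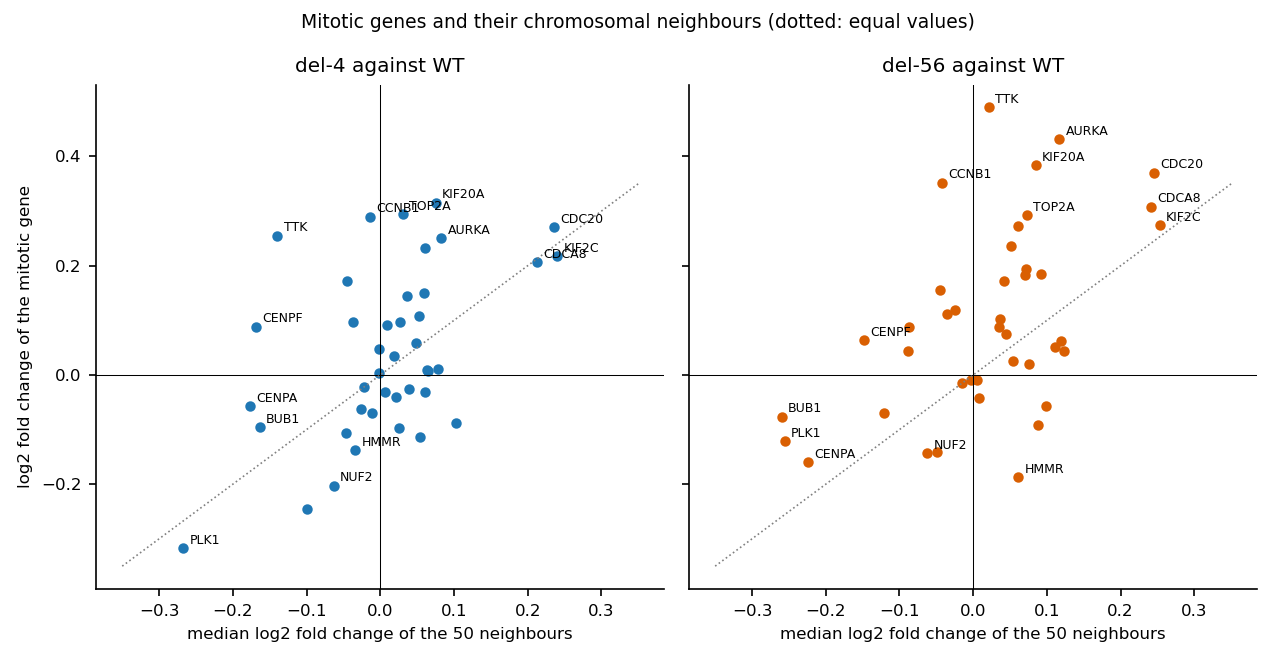
Log2 fold change against WT of each mitotic gene (vertical axis) against the median of its 25 tested neighbours on each side (horizontal axis), for del-4 (left) and del-56 (right), with the dotted line for equal values. *CDC20*, *CDCA8* and *KIF2C* sit near the line at the right, *PLK1* near it at the left in del-4, and *CCNB1*, *TTK*, *AURKA*, *KIF20A* and *TOP2A* sit above it.

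The other genes of the pathway were counted in lists by role, which were drawn up with earlier results of these data known. Among 43 further mitotic genes, 9 rose and 12 fell in del-4, and 9 rose and 11 fell in del-56, with medians of -0.03 and -0.007. These shares lie near those of all genes for the rises (20.9% in each clone), and after rescaling to the same total 4 rose and 18 fell in del-4. The falls were 27.9% and 25.6%, beside 25.1% and 26.7% of genes with a WT mean of at least 1000. *ASPM*, a spindle pole protein, rose by 0.40 and 0.50, and *CKAP2L* fell by 0.35 and 0.38. *DEPDC1* was at or near 0 in del-56. Its reads were 5172, 5227 and 5083 in WT, 3528, 3099 and 3281 in clone del-4, and 2, 6 and 0 in clone del-56. It fell by 0.60 in del-4 (SE 0.047, adjusted p = 1.09e-08), and in del-56 the normalized count was 2.64 ± 3.08 against 4945 ± 135 in WT (SD, n = 3, adjusted p = 4.25e-11).

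Among structural genes of the chromosome more fell than rose, also under both other scalings. The share called lower was 39.1% and 52.2% for the inner centromere and outer kinetochore, and 62.5% in each clone for condensin. Of all genes, 20.2% (del-4) and 20.5% (del-56) were lower, and 20.5% and 19.2% higher. With a WT mean of at least 1000 it was 25.1% and 26.7% lower, and 26.7% and 24.4% higher. Of 23 genes of the inner centromere and outer kinetochore, 2 rose and 9 fell in del-4 and 0 rose and 12 fell in del-56 in the limma fit, where 2 were higher at an unadjusted p under 0.05. There edgeR called 1 higher and DESeq2 0. The medians were -0.09 and -0.13, and *CENPI* fell by 0.68 and 0.62, *CENPO* by 0.35 and 0.32 and *CENPH* by 0.18 and 0.30. Of 8 condensin genes, which compact chromosomes, 5 fell in each clone, and 0 rose in del-4 (limma, also 0 at an unadjusted p under 0.05 and by edgeR and DESeq2) and 1 in del-56. *NCAPH* fell by 0.40 and 0.28, *NCAPH2* by 0.28 and 0.38, and *NCAPD3* by 0.25 and 0.22. The windows of 7 of these condensin genes held CHR letters in 70% and CCAAT in 30%. Of 15 APC/C genes, 2 rose and 5 fell in each clone (13.3% and 33.3%), with *ANAPC1* (-0.41 and -0.32) and *ANAPC15* (-0.18 and -0.25, the first lost with quantile normalization) lower and *CDC27* (0.17 and 0.24) higher.

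**Figure D5:**
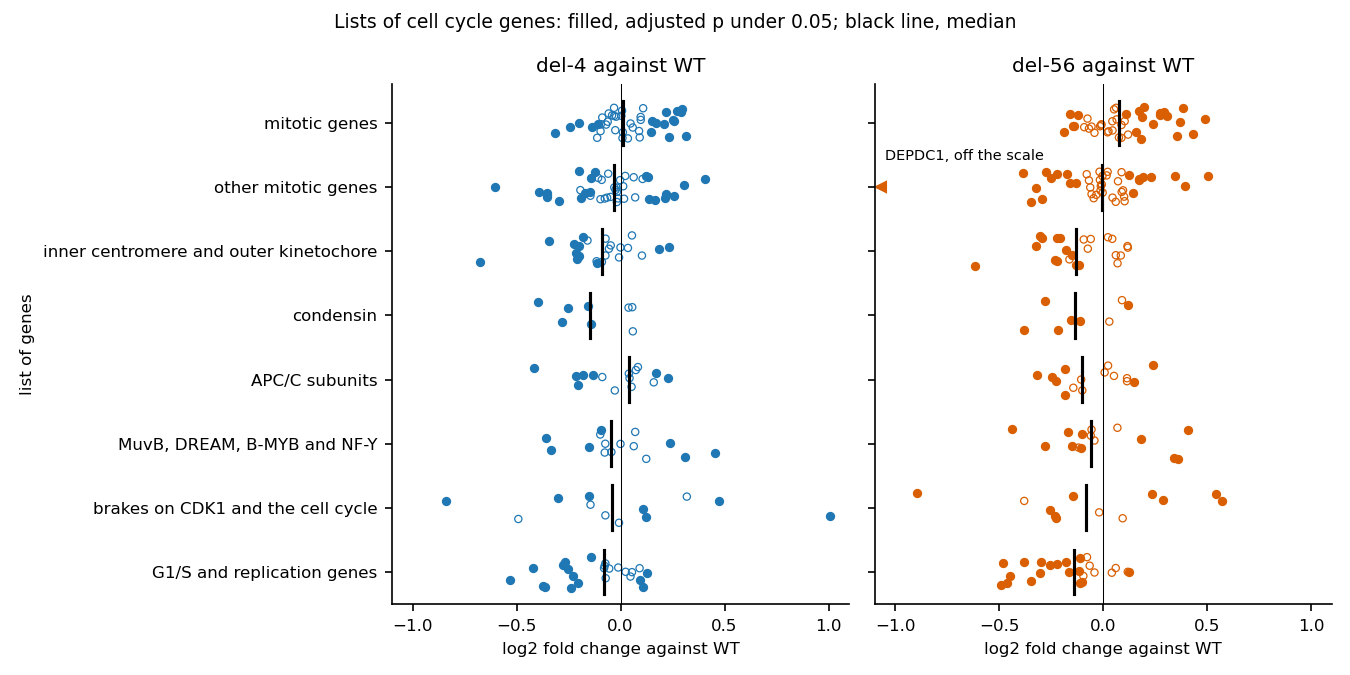
Log2 fold change against WT (horizontal axes) of each gene in the mitotic list and in 7 other lists of cell cycle genes (rows), for del-4 (left) and del-56 (right), with filled points for an adjusted p under 0.05 and a black line for the median. The mitotic genes have the highest median in del-56 (0.08), while in del-4 the APC/C subunits do (0.04, with 0.01 for the mitotic genes). The G1/S and replication genes, condensin, and the inner centromere and outer kinetochore genes lie to the left. *DEPDC1* in del-56 is off the scale, marked by a triangle.

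Regulators of the mitotic genes held both directions. Among 15 genes of MuvB, DREAM, B-MYB and NF-Y, 3 rose and 4 fell in del-4, and 4 rose and 6 fell in del-56. After rescaling 3 rose and 8 fell in del-4. *RBBP4*, a MuvB subunit with other chromatin roles, rose by 0.46 and 0.34, *E2F5* rose by 0.31 and 0.41, and *RBL1*, encoding the pocket protein p107, fell by 0.33 and 0.44. Of 12 genes that brake CDK1 or the cell cycle, 4 rose in each clone (33.3%), and 3 fell in del-4 (25%) and 5 in del-56 (41.7%). After rescaling 2 rose and 6 fell in del-4. *CDKN1A*, encoding the CDK inhibitor p21, rose by 1.01 and 0.54, and its counts were 10005.8, 10499.2 and 10618 in WT, 21046.7, 20673.6 and 20857.3 in clone del-4, and 14879.7, 15409.7 and 15067.7 in clone del-56. *PKMYT1*, whose kinase holds CDK1 inactive, fell by 0.84 and 0.90. *GADD45A*, a stress gene, rose by 0.47 and 0.28. The 24 genes of the G1/S transition and DNA replication, which act before mitosis, had more falls than rises. In del-4, 3 rose and 11 fell (12.5% and 45.8%), and in del-56, 1 rose and 16 fell (4.17% and 66.7%). Their medians were -0.08 and -0.14, and the shares of all genes are those given above. *GINS2* fell by 0.53 and 0.49, *MCM5* by 0.42 and 0.45, and *CDT1* by 0.38 and 0.48. These log2 fold changes come from the same fits as those of the mitotic genes, each with an adjusted p under 0.05. Of the genes named from the other lists, *RBBP4*, *GADD45A*, *ASPM* and *DEPDC1* lie on chromosome 1 and *PKMYT1*, *CDT1* and *GINS2* on 16. *CKAP2L*, *CENPO*, *NCAPH* and *ANAPC1* lie on 2. Parts of these 3 chromosomes held neighbourhoods with shifted medians, as given above. Neighbours were not taken for the genes of the other lists, and the part of their position was not tested.

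The summed normalized count of 11 markers of fibroblasts, leukocytes, endothelium and basal prostate cells was 1554 to 1821 in del-4, 1883 to 2277 in del-56 and 1690.2 to 1780 in WT, and that of the 6 LNCaP markers was 209582 to 212150 in del-4, 190764 to 195970 in del-56 and 227795 to 239225 in WT. The LNCaP sum was thus lower in every deletion library than in any WT library, but its genes did not move together. In del-4, *KLK3* rose by 0.25 (limma, adjusted p = 0.000288) and the other 5 fell. In del-56, *TMPRSS2* rose by 0.14 (limma, adjusted p = 0.0268), while after rescaling to the same total 0 of the 6 were called higher. *KLK3*, *KLK2* and *FOLH1* fell there, and *KRT8* and *KRT18* were not called. The part of the LNCaP sum in the results was not tested. Of the 11, 1 was at 0 in all libraries of del-4 (*PTPRC*), 4 in del-56 (*PTPRC*, *COL1A2*, *TP63* and *KRT5*) and 0 in WT. Of the 11, 4 had values that passed the test in a clone. *COL1A1* had most of the sum (991 ± 46.4 in WT, SD, n = 3) and rose by 0.33 and 0.34 (adjusted p = 0.00368 and 0.00184). *LUM* rose by 2.20 in del-56 (adjusted p = 6.37e-05), *VWF* fell by 0.97 in del-4 (adjusted p = 1.46e-06) and *COL3A1* fell by 0.86 in del-56 (adjusted p = 0.0294). The sum in every del-56 library exceeded that in WT, and its part in the results was not tested. *EPCART* itself was not analysed here, since the table holds protein-coding genes.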

How the data were processed

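RNA-seq libraries of 3 LNCaP clones (del-4, del-56 and WT, 3 cultures each) were grouped by the labels. The authors aligned paired-end reads to GRCh38 with STAR 2.71a and counted those on protein-coding genes (GENCODE 38) with bedtools 2.27.1. The strand setting of the count is not given in the sources used here. The deposited signal values are counts that the authors divided by 1 DESeq2 size factor per library, and in every library 100% of the values came out as whole reads at a tolerance of 0.001. Both mates appear to be counted, as 83.8% of values of 1 to 20 reads were even. Of the 19984 identifiers, 19905 were matched to symbols in GENCODE 44.

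Genes whose mean reached 1 in the 6 libraries compared were tested with limma 3.58.1 (R 4.3.3) on log2 values (pseudocount 1), with the variance trend on. No replicate block was used, since the deviations of same-numbered libraries were at most weakly correlated (-0.05 to 0.06). A gene was called at an adjusted p under 0.05. Fold changes are on that log2 scale. The limma, edgeR and DESeq2 fits of del-4 against WT were tried on simulated counts with a fixed dispersion. The other steps were not simulated, and recovery rates are not reported here. The recovered reads were fitted with edgeR 4.0.16 and DESeq2 1.42.0 as alternatives. Others were a pseudocount of 0.5 or 5, a minimum mean of 10 or none, rescaling, quantile normalization, 1 fit of all 9 libraries and each library left out.

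The members, lists and rules were chosen with earlier results of these data known. Every mitotic gene was named. Values per library were given for the 12 called in both comparisons with the largest mean absolute change, and for *CDK1*, *AURKB*, *BUB1*, *FOXM1* and *MKI67*. Up to 3 genes of each other list were named, called in both comparisons and with the largest mean change. Intervals are 95% and come from the fits. Some marker genes are not reported here.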

Additional observations from a re-analysis of the deposited data

Results flagged for a closer look

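The difference between the deletion clones themselves passed the limma test for 7 mitotic genes, with del-4 the lower clone in each. Their log2 differences were -0.23 for *TTK*, -0.20 for *PLK1*, -0.19 for *KIF14*, -0.18 for *AURKA*, -0.16 for *AURKB*, -0.15 for *KIF11* and -0.13 for *CENPE*. *TTK* and *PLK1* were called under every alternative tried, and the other 5 were lost when single libraries were left out, *CENPE* also with the replicate block (adjusted p = 0.0564). For *BUB1B*, *CDC20*, *CDCA8* and *PTTG1* every del-4 library also lay below every del-56 library, and these missed the threshold with adjusted p = 0.0504, 0.0653, 0.0813 and 0.193 (limma). *CENPA* lay the other way, with every del-4 library above every del-56 library (0.10, adjusted p = 0.104). Of all 17447 genes tested, 2991 lay lower and 3071 higher in this way.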

How the results depend on the processing

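Of the mitotic genes called, all 17 in del-4, 21 in del-56 and 7 between the clones kept their direction under every alternative, and 14, 15 and 2 kept their call. In del-4 the calls lost were *CDC25C*, *DLGAP5* and *PRC1*. *DLGAP5* was lost on rescaling to the same total (adjusted p = 0.16), and *PRC1* with the replicate block (0.0504) as well as without single libraries. *CDC25C* was lost on rescaling and without del-4 replicate 1 or 2 or WT replicate 2 or 3, with adjusted p up to 0.255. In del-56 they were *CCNA2*, *CDC25C*, *PLK1*, *NEK2*, *PTTG1* and *NUF2*. *CCNA2* was lost on rescaling and without del-56 replicate 2 or 3 or WT replicate 3 (adjusted p up to 0.119), and *CDC25C* on rescaling and without del-56 replicate 2 or WT replicate 2 (up to 0.105). *NEK2* and *NUF2* were also lost with quantile normalization (0.0964 and 0.0883), and *CCNA2*, *PLK1* and *NEK2* with the replicate block (0.0689, 0.0621 and 0.0823).

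Some counts and medians moved further. Genes lower in del-4 numbered 12 after rescaling against 5, with a median log2 fold change of -0.0583 against 0.011, and leaving out 1 library gave 4 to 8 and medians of -0.0134 to 0.0498. Genes lower in del-56 numbered 3 with quantile normalization, and 2 to 4 with 1 library left out. The median in del-56 was 0.0461 after rescaling and 0.0726 to 0.0915 with 1 library left out. Between the clones 13 were lower after rescaling, with a median of -0.0925, and 2 to 9 with 1 library left out (medians -0.0707 to -0.03). Rescaling shifts all genes by construction. The cause of the other moves was not tested.

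Differences that were not called changed sign in places. Some became calls: alternatives called 11 further genes for del-4 and 5 for del-56, among them *CCNA2* in del-4 (DESeq2, adjusted p = 0.0437), *CDC25B* (0.0372 without del-4 replicate 1), *NEK2*, *CENPA* and *ECT2* after rescaling (0.032, 0.0142 and 0.0302), *PTTG1* (0.0071 without WT replicate 1) and *CENPF* (DESeq2, 0.0462), and in del-56 *SGO1* (quantile normalization, 0.0468). After rescaling, in del-4, *BUB3* was at -0.0583, *SGO1* at -0.0343, *KIF11* at -0.0657, *KIF4A* at -0.0605, *TPX2* at -0.0216, *NUSAP1* at -0.0623 and *MKI67* at -0.0109, and in del-56 *BUB1B* was at -0.0038 and *NDC80* at -0.0086. With quantile normalization *BUB3* was at -0.0206 and *NUSAP1* at -0.0203 in del-4. With 1 library left out, the values in del-4 ranged over -0.005 to 0.0285 for *BUB3*, -0.0148 to 0.0715 for *SGO1*, -0.11 to 0.041 for *INCENP*, -0.0373 to 0.0359 for *KIF11*, -0.0134 to 0.0241 for *KIF4A* and -0.0223 to 0.0498 for *NUSAP1*. In del-56 they ranged over -0.0041 to 0.0658 for *NDC80*, -0.0998 to 0.0512 for *INCENP*, -0.0327 to 0.0138 for *NUSAP1*, -0.0435 to 0.0187 for *ECT2* and -0.0107 to 0.1636 for *MKI67*.

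Replicate numbers are shared between clones, and the deviations of same-numbered libraries had correlations of -0.05 to 0.06. Those of differently numbered libraries were -0.05 to 0.04. Same-numbered pairs with del-4 were all slightly positive (0.02 to 0.06), and those of del-56 with WT were at or below 0 (-0.05 to -0.0005). Differently numbered pairs of del-4 and del-56 were all slightly negative (-0.05 to -0.008). Deviations were taken from each clone's own mean and cancel within a clone. The signs of same-numbered and differently numbered pairs are thus partly tied by construction. Whether same-numbered libraries share more than a number was not tested. With the replicate number as a block, 12 genes were higher and 4 lower in del-4, 15 and 3 in del-56, and 0 and 8 between the clones. The share of promoter windows with CHR letters was 78.3% in a shorter window (150 bases before the start), against 82.6%. The smallest SE of a log2 fold change against WT of a mitotic gene was 0.035.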
